A study of Solanum lycopersicum with 18 samples.

Results

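The response to heat stress (HS) within 1 hsfa1a line of tomato, named CS3 in the deposited table, was described from 6 of the 18 RNA-seq libraries of the series, the 3 made after 1 h at 45 °C and the 3 made at 0 h. All plants were of the cultivar Moneymaker, were grown at 24 °C and were 4 weeks old, and RNA came from the fourth leaf. The groups used were CS3 at 1 h and 0 h, CS2 (the other hsfa1a line) at 1 h and 0 h, and WT plants at 1 h and 0 h, with 3 libraries each. CS2 and CS3 are RNAi knock-down lines for the HS transcription factor HSFA1a. With 1 line each, a property of a line cannot be told apart from one of the knock-down. Each replicate is a pool of randomly chosen plants. Genes entered the comparison when they had at least 50 counts in at least 2 libraries of the series, which kept 15312 of 35821 genes. Levels are given as CPM, counts scaled to library sizes that are adjusted by TMM, the scaling factors of edgeR. A gene was called higher or lower at 1 h when the adjusted p of edgeR's quasi-likelihood test was under 0.05.

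Plant cells answer a sudden rise in temperature by activating heat stress transcription factors (HSFs), which bind heat shock elements in promoters and switch on genes for chaperones. In tomato HSFA1a has been described as the master regulator that acts first, and HSFA2 as a factor that accumulates during HS and acts together with it. The chaperones hold unfolding proteins in solution (small heat shock proteins), refold them (HSP70 with DnaJ partners, HSP90) or pull them out of aggregates (HSP100/CLPB).

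Total counts were 1792234 to 2334560 in the CS3 libraries at 1 h and 2762831 to 3529639 at 0 h, against 1713285 to 3669618 over all libraries. The first principal component of the tested genes (62.1% of the variance) separated all 1 h libraries from all 0 h libraries. Among the CS3 libraries, 0 h replicate 2 stood apart, with a mean correlation of 0.893 to the other two, against 0.936 and 0.918 for these. The leaf markers were 17 genes for chlorophyll a/b binding proteins and carbonic anhydrase, 15 of them tested. In CS3 their levels summed to 5461 to 6557 CPM at 1 h and 3467 to 4500 CPM at 0 h. In contrast, 4 fruit, pollen and seed markers summed to 0.456 to 1.82 CPM at 1 h and 0.933 to 1.59 CPM at 0 h, with the fruit gene PG2 at 0 counts at both times.

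HSFA1a (Solyc08g005170.3, chromosome 8, 127049 to 132599 of the M82 assembly), the gene that the RNAi construct targets, had 96.9, 117 and 133 CPM in the 1 h libraries, against 90.3, 67.4 and 72.2 CPM in the 0 h libraries. The 3 libraries at 1 h lay above those at 0 h, and the rise passed the test (log2 fold change 0.59 ± 0.15 (SE), adjusted p = 0.00363). In CS2 its values were 86.9, 122 and 110.3 CPM at 1 h and 62.2, 67.3 and 72.8 CPM at 0 h, and in WT 78.1, 71.6 and 61.9 CPM at 1 h and 84.5, 70.3 and 66.6 CPM at 0 h. The libraries labelled CS3 were thus not lower than WT. The log2 difference CS3 minus WT was 0.72 ± 0.16 (SE, adjusted p = 0.00303) at 1 h and 0.06 ± 0.15 (SE, adjusted p = 0.899) at 0 h. These counts alone go against the label of a knock-down. The paper describes the hairpin construct as lowering HSFA1a expression, and reports growth defects of both lines under HS. Counts over a whole gene cannot separate transcripts of the gene from those of a hairpin construct that carries a piece of it, and CS3 below stands for the libraries labelled CS3. The heat response of HSFA1a itself differed by 0.66 between CS3 and WT, which did not pass the test (edgeR, adjusted p = 0.064).

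Over all tested genes, 8151 (53.2%) were called between CS3 at 1 h and CS3 at 0 h, 4086 higher (26.7%) and 4065 lower (26.5%). The median log2 fold change was -0.0047 and the median of its size 0.48. At 2-fold or more, 1344 called genes were higher (8.78%) and 1786 lower (11.7%). At 8-fold or more, 224 were higher (1.46%) and 56 lower (0.366%). In WT, by the same fit, 49.4% of the genes were called, 24.2% higher and 25.2% lower. All 3 libraries at 1 h lay above all 3 at 0 h for 4466 genes (29.2%) and below them for 3998 (26.1%). The split between higher and lower depended on scaling. With library size only, the median log2 fold change moved by -0.18 and 34.4% of the calls were higher, against 50.1% with TMM. Upper-quartile scaling gave 41.6%. In bulk leaf tissue, fewer cells of a type and less RNA per cell cannot be told apart.

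**Figure D1:**
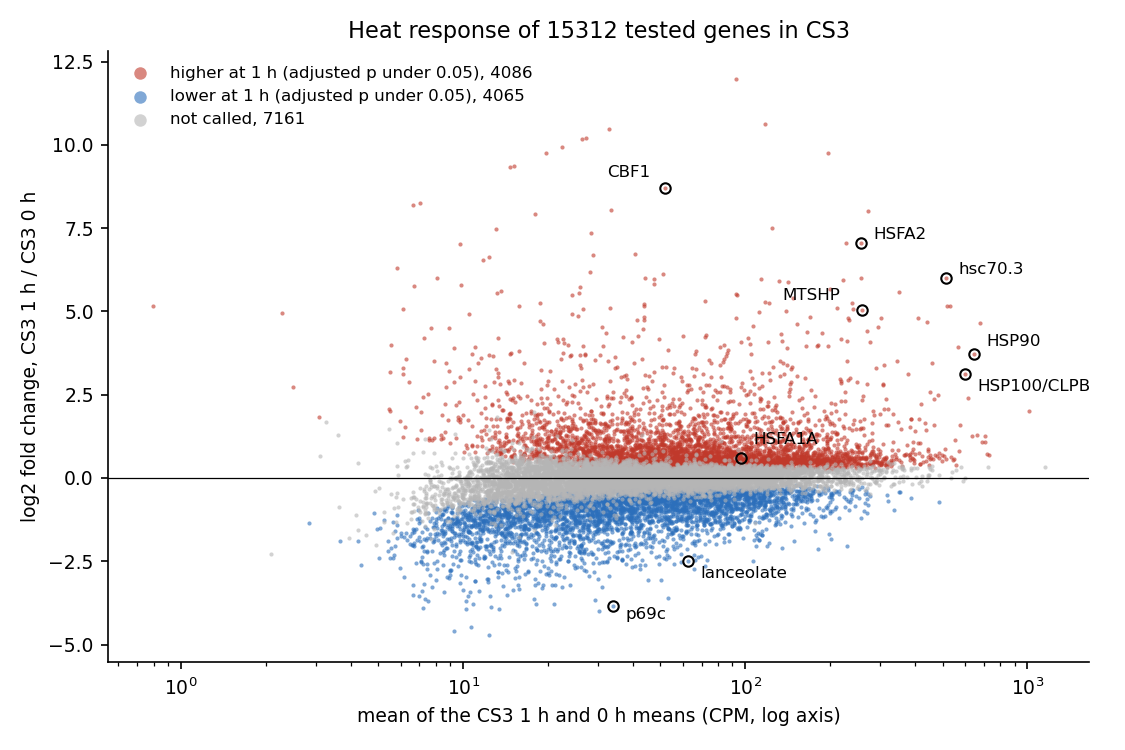
Log2 fold change between CS3 at 1 h and CS3 at 0 h (y axis) against the mean level of both times in CPM (x axis, log scale) for the 15312 tested genes, 1 point per gene, with 4086 higher (red), 4065 lower (blue) and the others not called (grey). Chaperone genes such as hsc70.3 and HSP90 stand at the right with large rises. Fold changes of genes with no counts at 0 h depend on the prior count of the fit.

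Named genes rest on symbols placed on the identifiers of the table, and 1064 tested genes had one, of which 333 were higher (31.3%) and 284 lower (26.7%) at 1 h. Most listed HSF and chaperone genes rose in CS3. Of 17 tested members of the lists of HSFs, small heat shock proteins, HSP70 and DnaJ proteins, and HSP90 and HSP100 proteins, 16 were called higher and none lower, against 26.7% higher among all tested genes. HSFA3 was the member that did not pass. The HSF list held 4 genes, and the 16 include HSFA1a, whose counts cannot be separated from those of a hairpin construct. Within CS3, members with low unheated levels, such as HSFA2, could meet the count filter only through heated libraries. This favours rises in such a count, also in those of the lists below.

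Among the HSFs, HSFA2 (Solyc08g062960.4, chromosome 8, 53211703 to 53213726), the HS-induced class A factor, had 509, 587 and 433 CPM in the 1 h libraries, against 3.72, 5.62 and 2.18 CPM in the 0 h libraries. This was the largest rise among the HSFs (log2 fold change 7.06 ± 0.30 (SE), adjusted p = 5.57e-12). No 1 h library came near the 0 h ones. HSTF24, a heat shock factor gene of class B, had 163, 241 and 179 CPM at 1 h, against 16.7, 16.5 and 10.3 CPM at 0 h. It also rose (log2 fold change 3.73 ± 0.33 (SE), adjusted p = 3.84e-08). HSFA3, another class A factor, had 194, 218 and 183 CPM at 1 h, against 176, 74.1 and 176 CPM at 0 h. Its groups did not overlap, with 0 h replicate 2 far below the others, and the difference did not pass the test (0.47, adjusted p = 0.088). Without that library the log2 fold change was 0.17, whereas it was 0.66 without 0 h replicate 1 and 0.65 without 0 h replicate 3, where it passed (adjusted p = 0.0397 and 0.0375). The median of the 4 HSFs was 2.16 on the log2 scale, against -0.0047 for all tested genes.

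All 4 tested small heat shock protein genes were higher, with a median log2 fold change of 4.10, against 26.7% higher over all tested genes. HSP16-9 and HSP20-1, also on the list, had 0 counts in every CS3 library and were not tested. MTSHP, which encodes a mitochondrial member, had 499, 565 and 444 CPM in the 1 h libraries, against 6.91, 27.7 and 12.8 CPM in the 0 h libraries. Its rise was the largest of the list (log2 fold change 5.03 ± 0.35 (SE), adjusted p = 2.51e-09), and 5.69 without 0 h replicate 2. Hsp20.0 had 236, 308 and 219 CPM at 1 h, against 10.6, 19.7 and 8.71 CPM at 0 h (log2 fold change 4.31 ± 0.40 (SE), adjusted p = 8.16e-08). For HSP17-6 the levels were 250.4, 319.9 and 217 CPM at 1 h, against 13.02, 27.4 and 13.4 CPM at 0 h (log2 fold change 3.89). HSP17.8 had the smallest rise of the list, 3.00, with 185, 219 and 159 CPM at 1 h, against 17.5, 27.7 and 25.5 CPM at 0 h. No 1 h library overlapped a 0 h library for any of the 4. Over all tested genes, all 1 h libraries lay above all 0 h libraries for 29.2%. For each of the 4 genes 0 h replicate 2 was the highest unheated library. Summed over the list, the level was 1039 to 1412 CPM at 1 h, against 48.1 to 102.5 CPM at 0 h. Duplicate reads had been removed before counting, and the highest counts of Hsp20.0 and HSP17.8 reached 0.958 and 0.912 of the gene length. With a correction for filled positions their log2 fold changes became 5.39 and 3.76. Small heat shock protein genes lie in clusters of near-identical copies, and counts of a single copy are uncertain.

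In the HSP70 family, hsc70.3 had 1033, 1124 and 885 CPM in the 1 h libraries, against 10.9, 20.4 and 16.8 CPM in the 0 h libraries. Hsc70.1 had 1055, 1122 and 929 CPM at 1 h, against 15.4, 42.8 and 29.9 CPM at 0 h. Both passed the test, with log2 fold changes of 6.001 ± 0.35 (SE) for hsc70.3 and 5.16 ± 0.47 (SE) for Hsc70.1. Hsc70.2 was already expressed at 0 h and had 851, 877 and 731 CPM at 1 h, against 116, 214 and 111 CPM at 0 h (log2 fold change 2.48 ± 0.25 (SE), adjusted p = 2.62e-07). BiP/grp78, the HSP70 of the endoplasmic reticulum, had 568, 537 and 607 CPM at 1 h, against 190.2, 239 and 163 CPM at 0 h (log2 fold change 1.53 ± 0.19 (SE), adjusted p = 2.28e-06). DNAJ, a co-chaperone that stimulates HSP70, had 83.6, 87.3 and 116 CPM at 1 h, against 18.9, 25.3 and 19.6 CPM at 0 h (log2 fold change 2.18 ± 0.25 (SE), adjusted p = 1.39e-06). All 5 members were higher and none overlapped between the times, with a median of 2.48. Over all tested genes 26.7% were called higher, and for 29.2% all 1 h libraries lay above all 0 h libraries.

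HSP90 had 1236, 1346 and 1028 CPM in the 1 h libraries, against 43.6, 166 and 65.9 CPM in the 0 h libraries. The value of 0 h replicate 2 was over those of both other unheated libraries, and all 1 h libraries were higher still (log2 fold change 3.72 ± 0.44 (SE), adjusted p = 1.6e-06). Without that library the log2 fold change was 4.46. HSP100/CLPB, the disaggregase needed for acquired thermotolerance, had 1058, 1286 and 888 CPM at 1 h, against 112, 136 and 126 CPM at 0 h (log2 fold change 3.12 ± 0.24 (SE), adjusted p = 6.44e-09). Hsp90-1 and HSC80 were abundant at both times. Hsp90-1 had 987, 919 and 778 CPM at 1 h, against 321, 464 and 348 CPM at 0 h. HSC80 had 948, 940.5 and 788 CPM at 1 h, against 466, 646 and 523 CPM at 0 h. Both passed with smaller rises (log2 fold changes 1.25 and 0.71), and the median of the 4 members was 2.18.

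**Figure D2:**
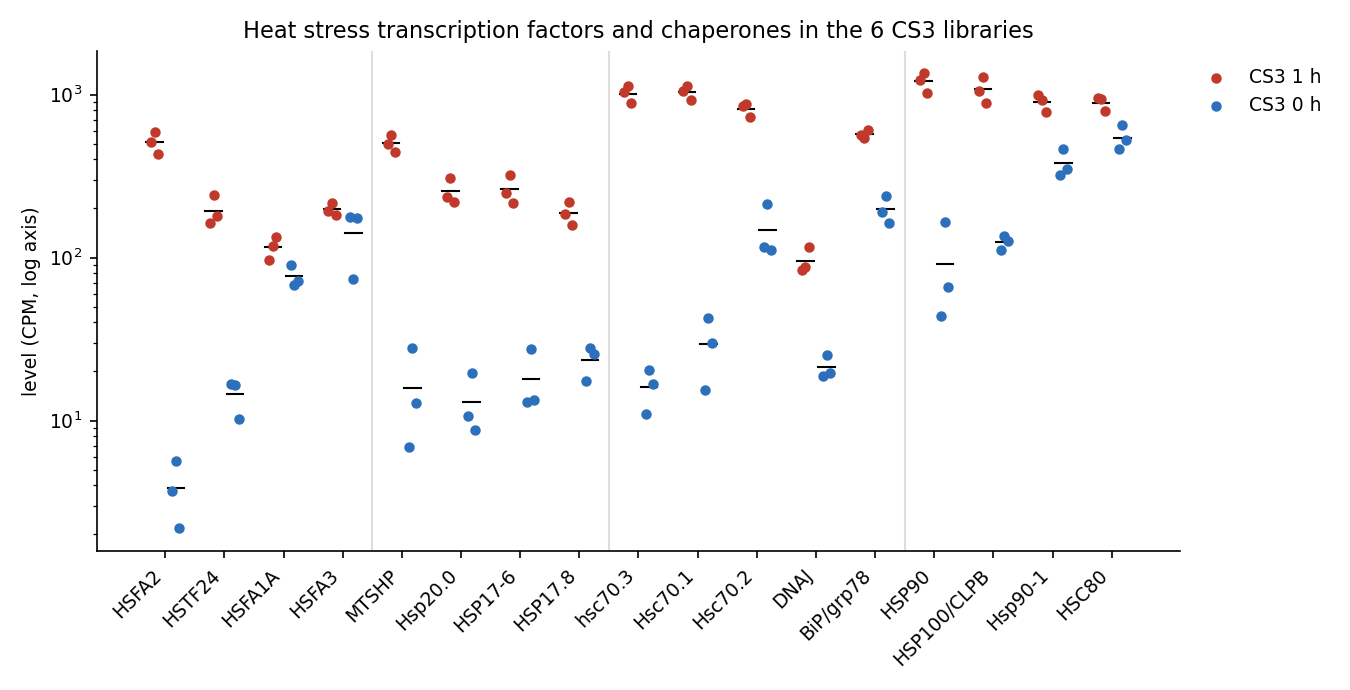
Level in CPM (y axis, log scale) of 4 HSF genes and 13 chaperone genes in each CS3 library, with 1 h (red) left of 0 h (blue), points for single libraries and bars for the mean of 3. For HSFA2 the 1 h libraries sit between 433 and 587 CPM and the 0 h libraries between 2.18 and 5.62 CPM, whereas HSFA3 and HSFA1A change least.

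FKBP immunophilins are peptidyl-prolyl isomerases, some of which bind HSP90. Of 18 tested members 6 were higher, 3 lower and 9 not called, against 26.7% higher and 26.5% lower over all tested genes. The median of 0.15 turned to -0.03 with library size only. FKBP65 had 477, 607 and 431 CPM in the 1 h libraries, against 5.05, 14.4 and 4.67 CPM in the 0 h libraries. The groups were far apart (log2 fold change 6.02 ± 0.42 (SE), adjusted p = 2.14e-09), and the log2 fold change was 6.68 without 0 h replicate 2. FKBP62a had 703, 787 and 571 CPM at 1 h, against 132, 177 and 138 CPM at 0 h (log2 fold change 2.21). FKBP42 had 137, 156 and 148 CPM at 1 h, against 37.996, 47.4 and 28.6 CPM at 0 h (1.95). In contrast, FKBP53 fell to 7.94, 9.695 and 6.84 CPM at 1 h, against 19.9, 22.8 and 14.6 CPM at 0 h (-1.24, adjusted p = 0.00109). FKBP62B fell as well (-0.89).

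Of 5 tested MBF1 coactivator and galactinol synthase genes 3 were higher, and over all tested genes 26.7% were higher and 26.5% lower. ER24, a transcriptional coactivator of the MBF1 family, had 310.2, 358 and 279 CPM in the 1 h libraries, against 15.1, 12.99 and 16.8 CPM in the 0 h libraries. All heated libraries lay above the unheated ones (log2 fold change 4.39 ± 0.26 (SE), adjusted p = 3.63e-10). GolS2, which makes galactinol for raffinose sugars, had 29.6, 43.6 and 29.7 CPM at 1 h, against 3.19, 3.16 and 4.35 CPM at 0 h (3.24). MBF1a and MBF1 did not pass (0.11 and 0.01), and MBF1c was near the threshold (0.37, adjusted p = 0.0409) and was not called with DESeq2, with either of the other scalings, or without 0 h replicate 1 or 2 or 1 h replicate 1 or 3 (log2 fold changes 0.30, 0.33, 0.25 and 0.40). Of 6 stress-associated A20/AN1 zinc finger genes 5 were higher and SAP9 lower. SAP11 had 94.2, 124 and 124 CPM at 1 h, against 4.52, 5.27 and 8.09 CPM at 0 h (4.26). Of 21 genes of ascorbate and peroxide scavenging 13 were higher and 2 lower (median 0.45). APX1, an ascorbate peroxidase, had 289, 288 and 264 CPM at 1 h, against 75.5, 92.7 and 85.8 CPM at 0 h (log2 fold change 1.73 ± 0.12 (SE), adjusted p = 2.51e-09). APX2 and SODCC.1, a cytosolic copper/zinc superoxide dismutase, rose by 1.62 and 1.42 on the log2 scale. Catalases went apart. CAT2 had 624, 552 and 488 CPM at 1 h, against 314, 342 and 382 CPM at 0 h (0.68). In contrast, cat1 had 183, 162 and 189.8 CPM at 1 h, against 258, 273 and 303 CPM at 0 h (-0.64).

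The largest rises of genes with a symbol were in genes with few or no counts in unheated CS3 plants. CBF1, a DREB-type factor known from the cold response, had 89.5, 81.2 and 141 CPM in the 1 h libraries, against 0.266, 0 and 0.311 CPM in the 0 h libraries. In all these were 611 against 2 counts, a ratio of 524 after scaling (95% exact interval for counting error only, 144 to 4335). DCL2b, a Dicer-like enzyme that cuts double-stranded RNA into small RNAs, had 60.3, 81.2 and 57.95 CPM at 1 h, against 0, 0 and 0.622 CPM at 0 h. For it 375 stood against 2 counts (ratio 321, interval 88.4 to 2664). ERF-J1 had 200 against 1 counts (ratio 343, interval 60.8 to 13611). ERF-D3 had 327 against 3 counts (ratio 187, interval 63.4 to 911). These ratios are imprecise, because the unheated libraries hold 1 to 3 counts. ER5 had 56.1, 99.4 and 85.8 CPM at 1 h, against 1.33, 0.351 and 0.311 CPM at 0 h (6.73, and 7.74 without 0 h replicate 1). PSR had 257, 345 and 235 CPM at 1 h, against 4.52, 5.27 and 4.35 CPM at 0 h (5.88). In all, 11 genes were called higher with no count in any unheated CS3 library. Among those the study singled out, Solyc03g026270.3 (chromosome 3, 3679642 to 3680259) had 42.9, 43.02 and 72.1 CPM at 1 h, against 0, 0 and 0 CPM at 0 h. Against a floor of 3 counts over the 0 h group this was at least 177-fold higher. Solyc09g074475.1 had 37.6, 75.1 and 53.4 CPM at 1 h, against 0.266, 1.405 and 0.622 CPM at 0 h (log2 fold change 6.18 ± 0.51 (SE), adjusted p = 1.81e-08), with 6.86 without 0 h replicate 2. The actin gene Solyc03g078400.3 had 449, 443 and 389.7 CPM at 1 h, against 307, 378 and 351 CPM at 0 h. Its groups did not overlap, and it did not pass (0.31, adjusted p = 0.0694) but passed without 0 h replicate 2 (adjusted p = 0.0457). Identifiers without a symbol had the largest rises, Solyc06g051950.4 (1343 against 1 counts) and Solyc05g010210.1 (1047 against 0 counts, at least 598-fold).

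The largest falls were smaller. p69c, a subtilisin-like protease, had 3.71, 4.85 and 4.56 CPM in the 1 h libraries, against 62.97, 59.4 and 68.1 CPM in the 0 h libraries. Its 1 h libraries were all low and close together (log2 fold change -3.85 ± 0.22 (SE), adjusted p = 1.97e-10). lanceolate, the TCP factor that sets leaf complexity, had 21.2, 19.997 and 15.5 CPM at 1 h, against 91.1, 132 and 94.9 CPM at 0 h (log2 fold change -2.49 ± 0.25 (SE), adjusted p = 2.66e-07). The gene exp18, which encodes an expansin that loosens cell walls, had 10.6, 13.9 and 9.13 CPM at 1 h, against 69.6, 103 and 48.5 CPM at 0 h (-2.72). CYP77A19, CYP92B7 and CYP96A48, cytochrome P450 enzymes, had log2 fold changes of -3.05, -2.53 and -2.46. F3'5'H, an enzyme of anthocyanin synthesis, had -2.82. ABCA3 had 4.76, 5.45 and 5.02 CPM at 1 h, against 47.8, 12.99 and 51.9 CPM at 0 h (-2.89). Here 0 h replicate 2 was far below the other unheated libraries but over every 1 h library. NRC4B had 12.7, 20.6 and 15.97 CPM at 1 h, against 90.3, 94.1 and 80.6 CPM at 0 h (-2.44). Among identifiers without a symbol and with a mean of at least 20 CPM at 0 h, Solyc02g070180.3 (-4.70) and Solyc03g006710.1 (-4.47) fell most. Without 1 h replicate 1 these were -5.45 and -6.10, and without 1 h replicate 3 Solyc03g006710.1 had -3.81.

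**Figure D3:**
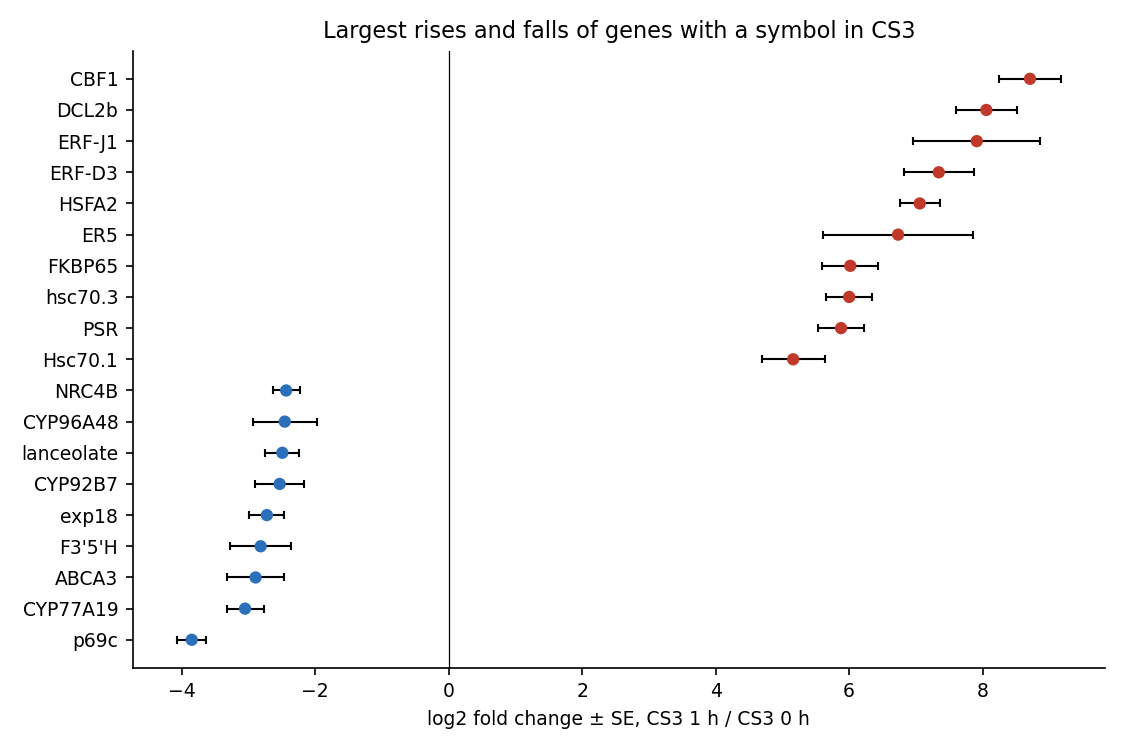
Log2 fold change with its SE (x axis) of 10 genes with a symbol that rose and 9 that fell most in CS3, out of those with a mean of at least 20 CPM at the higher time. The rises (red) reach 8.71 for CBF1, with wide bars where unheated libraries hold few counts, and the falls (blue) reach -3.85 for p69c.

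Transcription factor families known from stress were counted next, against 26.7% higher and 26.5% lower over all tested genes. Of 28 tested ERF and DREB factors 19 were higher and 1, ERF-H6, lower, with a median log2 fold change of 1.47. The list had 62 placed members, and those with too few counts were not tested. CBF1, ERF-J1 and ERF-D3 had 1 to 3 counts over the unheated CS3 libraries. Within CS3 such genes could reach the count threshold only in heated libraries, which favours rises in this count. DREB2, a factor of the drought and heat response, had 52.4, 58.8 and 62.97 CPM in the 1 h libraries, against 9.57, 11.9 and 7.78 CPM in the 0 h libraries. The groups were well apart (log2 fold change 2.58 ± 0.20 (SE), adjusted p = 8.36e-09). ERF3 had 131, 158 and 157 CPM at 1 h, against 13.02, 9.48 and 19.9 CPM at 0 h (3.38). Of 7 NAC factors 5 were higher and NAC2 lower (median 2.08). The limit of the count filter holds here as well, as NAC1 was under the count threshold in every unheated CS3 library. NAC1 had 98.5, 141 and 175 CPM at 1 h, against 9.2998, 4.57 and 6.84 CPM at 0 h (4.28). Of 7 WRKY factors 4 were higher and none lower (median 1.81), although with library size only WRKY3 and WRKYIId-4 were called lower. WRKY31 had 198, 255 and 314 CPM at 1 h, against 34.8, 30.6 and 39.8 CPM at 0 h (log2 fold change 2.87 ± 0.23 (SE), adjusted p = 1.63e-08). TCP factors, which steer growth of leaves, split into 3 higher and 7 lower of 13 (median -0.42), and without 0 h replicate 2 the number lower was 4. TCP6 had 46.6, 36.96 and 44.7 CPM at 1 h, against 10.4, 12.3 and 11.2 CPM at 0 h (1.93). TCP3 had 32.8, 39.4 and 39.2 CPM at 1 h, against 122, 137 and 155 CPM at 0 h (-1.89).

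Of 17 cyclins, mitotic kinases and replication genes 10 were lower, 3 higher and 4 not called (median -0.92), against 26.5% lower and 26.7% higher among all tested genes. Their summed level overlapped between 1 h (753 to 880.5 CPM) and 0 h (681 to 1304 CPM). CycB2, a mitotic cyclin, had 1.59, 5.45 and 1.83 CPM in the 1 h libraries, against 15.1, 22.5 and 4.98 CPM in the 0 h libraries. The groups overlapped, through 1 h replicate 2 and 0 h replicate 3 (log2 fold change -2.30 ± 0.60 (SE), adjusted p = 0.00399). Without 1 h replicate 2 the log2 fold change was -3.01. DNAPOLALPHA, the polymerase that starts replication, had 25.9, 21.8 and 14.1 CPM at 1 h, against 65.4, 57.9 and 51.6 CPM at 0 h (-1.51). The 3 that rose were krp1, krp3 and ccs52A. krp1 and krp3 inhibit cyclin-dependent kinases, as does krp4, which did not pass (-0.10), and ccs52A activates the complex that degrades mitotic cyclins. For krp1 the levels were 211, 192 and 213 CPM at 1 h, against 47.3, 68.8 and 42.3 CPM at 0 h (log2 fold change 1.97 ± 0.18 (SE), adjusted p = 5.46e-08). For ccs52A they were 96.9, 90.3 and 101 CPM at 1 h, against 42.5, 32.3 and 48.8 CPM at 0 h (1.22), and krp3 rose by 0.70. Among the unheated libraries 13 of the 17 genes, with 9 of the 10 lower ones, were highest in replicate 2, and without it 7 were lower and the median was -0.67.

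Of 11 DNA methyltransferases and demethylases 7 were lower and 1 higher (median -0.82), against 26.5% lower and 26.7% higher over all tested genes. CMT3, which maintains methylation outside CG sites, had 16.9, 5.45 and 10.95 CPM at 1 h, against 43.3, 36.9 and 23.95 CPM at 0 h (log2 fold change -1.62 ± 0.33 (SE), adjusted p = 0.000518). The demethylase gene DML4 had 10.1, 9.695 and 8.21 CPM at 1 h, against 41.5, 21.8 and 33.9 CPM at 0 h (-1.81). DNMT2, whose known substrate is transfer RNA, had 59.8, 60.6 and 60.2 CPM at 1 h, against 24.7, 18.6 and 26.1 CPM at 0 h (log2 fold change 1.37 ± 0.14 (SE), adjusted p = 2.46e-07). Of 41 ABC transporters 20 were lower and 3 higher (median -0.37). ABCG21 fell (-3.43, adjusted p = 4.83e-05), with -4.82 without 1 h replicate 1 and -2.77 without 1 h replicate 3. ABCG4 had 1.59, 1.82 and 0.913 CPM at 1 h, against 11.7, 43.9 and 1.24 CPM at 0 h. Its unheated libraries were far apart, 0 h replicate 3 overlapped with the heated ones, and the error was wide (-3.69 ± 1.25, SE). The call was lost without 0 h replicate 2 (-2.21, adjusted p = 0.148), 1 h replicate 1 (-3.85, adjusted p = 0.0531) or 1 h replicate 3 (-3.43, adjusted p = 0.0728). MDR1 had 23.8, 18.8 and 22.8 CPM at 1 h, against 98.6, 148 and 94.2 CPM at 0 h (-2.37).

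Of 16 expansins and xyloglucan enzymes of the cell wall 7 were lower and 3 higher (median -0.18), against 26.5% lower and 26.7% higher over all tested genes. tXET-B1, a xyloglucan endotransglycosylase, had 71.5, 63.6 and 119 CPM in the 1 h libraries, against 4.78, 1.76 and 1.87 CPM in the 0 h libraries. All heated libraries were high (log2 fold change 4.85 ± 0.38 (SE), adjusted p = 8.34e-09), and the value was 5.52 without 0 h replicate 1. EXLA1, an expansin-like protein, had 122, 139 and 150.1 CPM at 1 h, against 9.57, 10.5 and 14.9 CPM at 0 h (log2 fold change 3.55 ± 0.18 (SE), adjusted p = 4.77e-11). The 4 higher of 6 plasma membrane aquaporins rose by at most 0.75 (PIP2-1), and with library size only 1 was called.

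Of 14 Aux/IAA genes, which repress auxin responses, 6 were higher and 2 lower (median 0.35), against 26.7% higher and 26.5% lower over all tested genes. IAA15 had 51.9, 73.3 and 51.1 CPM at 1 h, against 9.03, 7.73 and 6.22 CPM at 0 h (2.92). IAA2 had 74.1, 80.6 and 80.3 CPM at 1 h, against 14.3, 6.67 and 13.7 CPM at 0 h (2.73). Of 13 auxin response factors 6 were lower and 2 higher (median -0.59). ARF5 had 4.76, 9.695 and 7.76 CPM at 1 h, against 33.7, 42.5 and 21.8 CPM at 0 h (log2 fold change -2.14 ± 0.31 (SE), adjusted p = 1.91e-05). The auxin conjugase GH3-8 had 20.1, 33.3 and 18.3 CPM at 1 h, against 82.4, 83.6 and 77.8 CPM at 0 h (-1.79). Of the other 4 tested GH3 genes GH3-5 was higher (0.43), a call lost with either other scaling and without 0 h replicate 1 or 2 or 1 h replicate 1 or 3 (0.38, 0.40, 0.37 and 0.37).

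Hormone genes are counted here against 26.7% higher and 26.5% lower over all tested genes. For ethylene, 6 of 17 genes were higher and 2 lower (median 0.40). ACO3, an enzyme of the last step of ethylene synthesis, had 48.7, 47.9 and 55.2 CPM at 1 h, against 8.503, 5.27 and 7.15 CPM at 0 h (log2 fold change 2.83 ± 0.24 (SE), adjusted p = 3.18e-08). ETR5, a receptor, had 187, 187 and 192 CPM at 1 h, against 53.7, 59.7 and 62.5 CPM at 0 h (1.69). EIN2, the signal carrier behind the receptors, had 92.1, 66.7 and 59.3 CPM at 1 h, against 149.9, 179.8 and 163 CPM at 0 h (-1.18). For abscisic acid, 4 of 7 genes were higher and 1 lower (median 0.66), and with library size only 2 were higher. CYP707A2, which degrades the hormone, had 61.4, 67.3 and 108 CPM at 1 h, against 5.85, 10.2 and 4.35 CPM at 0 h (log2 fold change 3.56 ± 0.41 (SE), adjusted p = 1.11e-06), whereas CYP707A1 of the same enzyme family fell (-1.63, adjusted p = 0.00268). NCED1, the synthesis enzyme, had 141, 234 and 204 CPM at 1 h, against 115, 122 and 130.3 CPM at 0 h (0.66, adjusted p = 0.0245). The call was lost without 0 h replicate 1 or 1 h replicate 2 or 3 (0.61, 0.50 and 0.61). For gibberellins, 4 of 11 genes were higher and 2 lower (median 0.47). GA2ox5, which inactivates gibberellins, had 11.6, 7.88 and 20.1 CPM at 1 h, against 0.266, 0.351 and 0 CPM at 0 h. These were 79 against 2 counts (ratio 67.7, interval 18.1 to 569). The receptor gene GID1b-1 had 55.1, 79.4 and 113 CPM at 1 h, against 17.5, 23.9 and 14.6 CPM at 0 h (2.15). For jasmonate, 3 of 10 genes were higher and 2 lower, with a median of 0.13 that turned to -0.05 with library size only. The repressor gene JAZ2 had 37.1, 42.4 and 56.6 CPM at 1 h, against 11.2, 9.13 and 13.7 CPM at 0 h (2.00).

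Of 14 chlorophyll a/b binding proteins of the light-harvesting antenna 13 were higher and none lower, with a median of 0.63, against 26.7% higher and 26.5% lower over all tested genes. CAB-10A had 510.3, 534 and 443 CPM in the 1 h libraries, against 248, 321 and 289.9 CPM in the 0 h libraries. The groups did not overlap (log2 fold change 0.79 ± 0.18 (SE), adjusted p = 0.00133). CAB5 was the member not called (0.41, adjusted p = 0.0768). With library size only 10 were higher, and 9 with the correction for filled positions. All 5 photosystem and plastocyanin genes were higher (median 0.71). PSBR of photosystem II had 367, 331 and 322 CPM at 1 h, against 181, 194 and 200.0 CPM at 0 h (log2 fold change 0.83 ± 0.15 (SE), adjusted p = 0.000138). These are the markers of leaf tissue as well, and 14 of the 15 tested leaf markers were higher. Genes of this kind have near-identical copies, and counts of a single copy are uncertain. Of 16 carotenoid genes 5 were higher and 1, PTOX, lower (median 0.19). CrtR-b2, a beta-carotene hydroxylase, had 8.999, 17.6 and 20.1 CPM at 1 h, against 2.66, 2.46 and 4.98 CPM at 0 h (2.20). Of 8 genes of the plastid isoprenoid (MEP) pathway 3 were higher and dxs2 lower, with a median of 0.11 that turned to -0.07 with library size only. Of 11 genes listed by symbol under light signalling 3 were higher and 2 lower (median 0.23). Of 3 genes listed by symbol as terpene synthases TPS1 was higher (0.95, not called without 0 h replicate 3, 0.76). MTS1 and TPS7 of that list were not called (-0.35 and -0.49). A symbol alone does not settle what TPS1, or PAR1 and PAR2 of the light signalling list, encode.

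**Figure D4:**
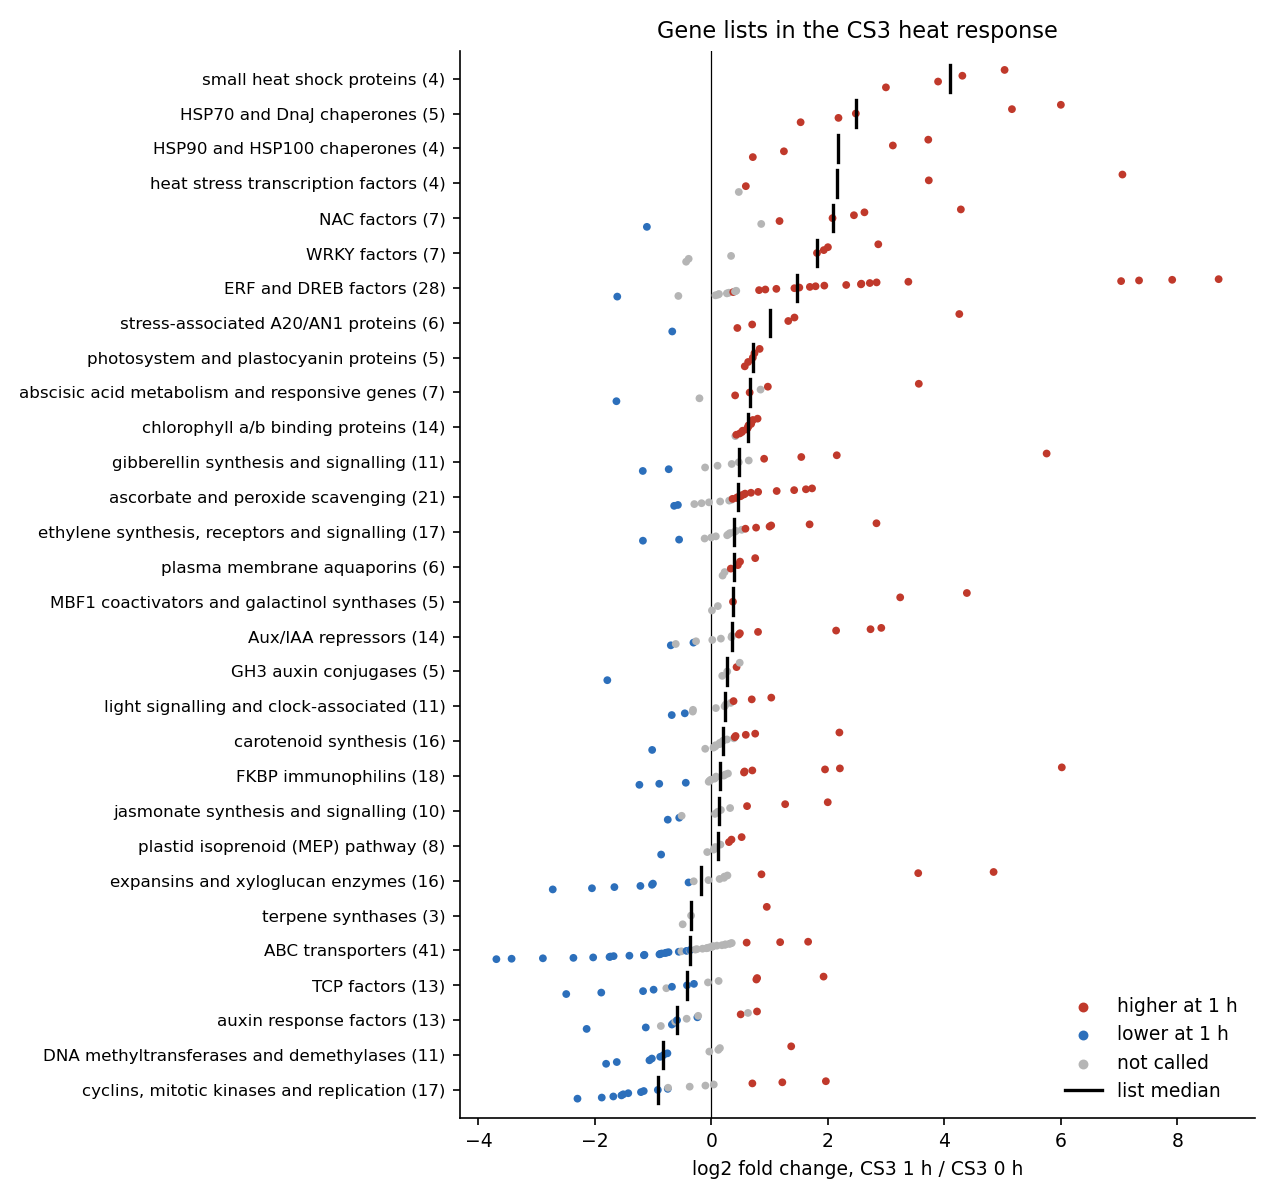
Log2 fold change (x axis) of each tested member of 30 gene lists (y axis, number tested in brackets) in the CS3 heat response, 1 point per gene, coloured by call, with a black bar at the list median. The lists of small heat shock proteins, HSP70 and DnaJ, HSP90 and HSP100, and HSFs stand at the top with medians of 2.16 to 4.10. The FKBP immunophilins have a median of 0.15, and cell division genes stand at the bottom with -0.92.

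The response of CS3 was set against those of WT and CS2 by the interaction in the same fit; both tests use the CS3 libraries. Against WT, 1571 genes (10.3%) passed, 760 with a larger log2 value in CS3 (4.96%) and 811 with a smaller one (5.3%). Among the 4086 genes higher in CS3, 418 had a larger value in CS3 than in WT (10.2%) and 109 a smaller one (2.67%). Among the 4065 lower in CS3, 454 had a more negative value in CS3 (11.2%) and 132 a less negative one (3.25%). Both subsets were chosen by the CS3 values that also enter the interaction, so these shares cannot show a stronger response in CS3. Of the 1571 genes that passed the interaction with WT, 141 were called in both CS3 and WT, in opposite directions. Of the 17 HSF and chaperone genes of the lists, 0 passed the interaction with WT by edgeR (3 with an unadjusted p under 0.05, 0 by DESeq2), and 0 that with CS2 (3 with an unadjusted p under 0.05, 1 by DESeq2).

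The largest interaction with WT among named genes was that of tXET-B1 (CS3 minus WT 3.06 ± 0.62 (SE), adjusted p = 0.00483). Against its CS3 values above, WT had 11.4, 8.13 and 16.2 CPM at 1 h and 2.49, 4.15 and 3.68 CPM at 0 h. The libraries at 0 h overlapped, and those of CS3 at 1 h stood over those of WT. IAA2 had 74.1, 80.6 and 80.3 CPM at 1 h in CS3, against 21.7, 14.7 and 14.5 CPM in WT (2.31 ± 0.37 (SE), adjusted p = 0.000845). For ERF-B5 the values at 1 h were 69.3, 76.96 and 113 CPM in CS3, against 22.8, 25.9 and 26.3 CPM in WT (2.15 ± 0.38 (SE), adjusted p = 0.00175). ERF-B13 and FZY6, a flavin monooxygenase of auxin synthesis, also had larger values in CS3 (differences of 2.07 and 1.95), although the call of ERF-B13 held in only 4 of 12 fits that each left out 1 library.

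On the other side, det2, a steroid reductase of brassinosteroid synthesis, had 5.82, 15.1 and 12.3 CPM at 1 h and 48.9, 67.1 and 41.99 CPM at 0 h in CS3. In WT it had 34.7, 43.7 and 48.7 CPM at 1 h and 44.1, 44.3 and 26.1 CPM at 0 h (-2.39 ± 0.50 (SE), adjusted p = 0.00535). It fell in CS3 (-2.25) and did not pass in WT (0.14). formin-I2I was the reverse case, with 8.999, 17.6 and 12.8 CPM at 1 h and 10.1, 17.9 and 13.997 CPM at 0 h in CS3 (-0.09, not called). WT had 38.3, 38.6 and 40.8 CPM at 1 h and 4.66, 14.9 and 8.84 CPM at 0 h (2.03; difference -2.12 ± 0.51 (SE), adjusted p = 0.0131). TMT2 was lower at 1 h in CS3 (-1.31) and higher in WT (0.54; difference -1.84 ± 0.23 (SE), adjusted p = 0.00017). DRM6, a DNA methyltransferase, likewise fell in CS3 (-1.06) and rose in WT (0.84; difference -1.90 ± 0.32 (SE), adjusted p = 0.00127), and CYP92B7 had a difference of -1.85, called in 9 of the 12 fits with 1 library left out. In CS2 the log2 fold changes were 4.10 for tXET-B1, 2.33 for IAA2, -2.19 for det2 and -0.75 for TMT2.

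**Figure D5:**
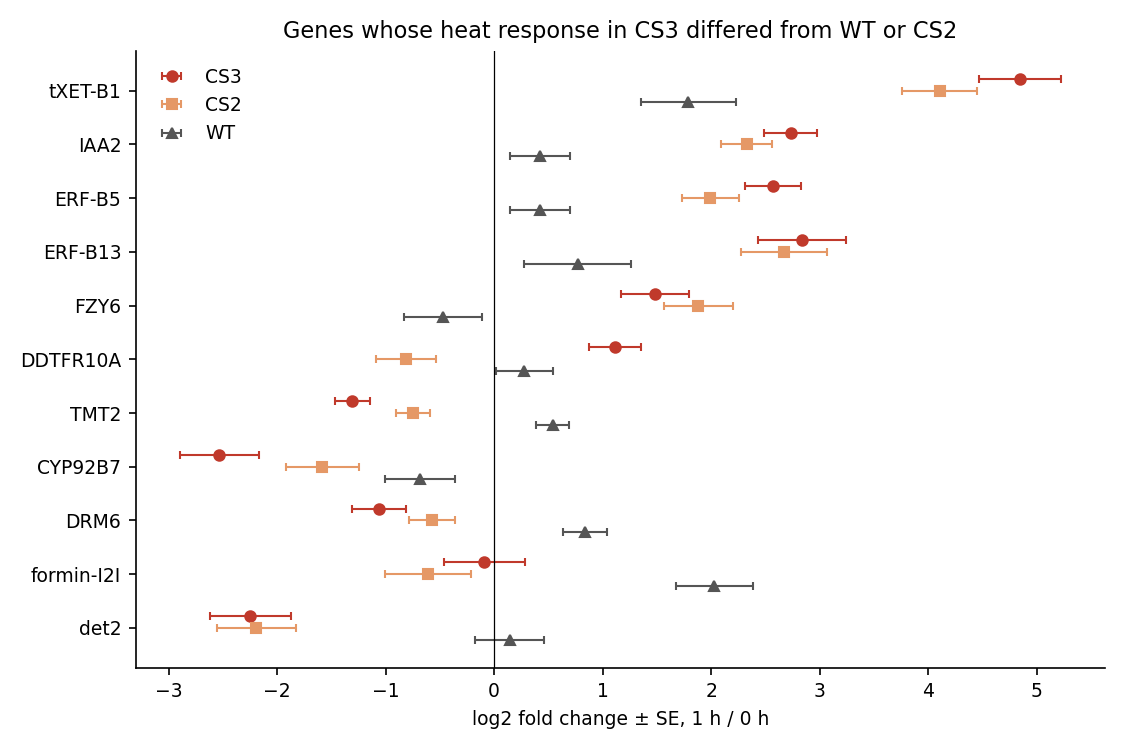
Log2 fold change at 1 h over 0 h with its SE (x axis) in CS3 (red circles), CS2 (orange squares) and WT (grey triangles) for the 11 named genes with the largest interactions. For IAA2 the values are 2.73 in CS3, 2.33 in CS2 and 0.42 in WT, and for DDTFR10A CS3 stands at 1.12 and CS2 at -0.81.

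Against CS2, 16 genes passed the interaction (0.104%), 14 with a larger value in CS3 (0.0914%) and 2 with a smaller one (0.0131%), and 1204 had an unadjusted p under 0.05 by edgeR. DESeq2 called 57. DDTFR10A, an ERF, was the named one. It had 69.9, 70.3 and 112 CPM at 1 h and 39.3, 40.4 and 37.3 CPM at 0 h in CS3. CS2 had 24.1, 16.7 and 15.3 CPM at 1 h and 24.98, 31.1 and 39.5 CPM at 0 h (1.93 ± 0.37 (SE), adjusted p = 0.0448). Every CS3 library at 1 h lay over every other one of the 4 groups, but the call held in only 3 of 12 fits that each left out 1 library. Among genes without a symbol, Solyc06g005550.3 had 31.8, 17.6 and 32.4 CPM at 1 h and 2.13, 1.05 and 2.799 CPM at 0 h in CS3. CS2 had 2.005, 0.9803 and 0.851 CPM at 1 h and 1.56, 2.39 and 1.41 CPM at 0 h (4.35 ± 0.79 (SE), adjusted p = 0.0355). In WT it rose as well (2.63). Of the 14 genes with a larger value in CS3 than in CS2, 14 were called higher in CS3 and 13 in WT, with DDTFR10A the exception (0.28 in WT). Over all tested genes 26.7% were called higher in CS3 and 24.2% in WT. The 14 genes were selected through their CS3 values, so their calls in CS3 are no independent result. In the other direction, Solyc03g083420.4 had 41.8, 35.8 and 35.1 CPM at 1 h and 45.4, 31.3 and 56.9 CPM at 0 h in CS3. CS2 had 193, 222 and 219.7 CPM at 1 h and 64.8, 43.9 and 42.6 CPM at 0 h (-2.32 ± 0.33 (SE), adjusted p = 0.0077). Its log2 fold change was -0.25 in CS3 and 0.23 in WT, neither called, and 2.07 in CS2, called. The number of such genes ranged between 7 and 38 as single CS3 or CS2 libraries were left out, with 38 without CS2 1 h replicate 1.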

How the data were processed

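RNA-seq of single-end reads of 75 bases was analysed from the table of raw counts per gene that the authors deposited. The paper names STAR and the M82 V1.0 assembly, the processing notes Bowtie2 2.3.5, Trimmomatic 0.38 and SAMtools 1.9. Per the file header, the authors kept alignments from mapping quality 30 upwards, and PCR duplicates were taken out. featureCounts 2.0.0 then assigned reverse-stranded reads to whole gene spans, including reads on several genes. Columns were assigned by their names; the labels call the hsfa1a lines line1 and line2, and how these pair with CS2 and CS3 is not given in the sources used here. The paper states another number of replicates than the 3 in the labels, and they may not be separate treatments, so p-values measure the spread between these libraries.

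Genes reaching 50 counts in 2 or more libraries entered edgeR 4.0.16 (R 4.3.3, limma 3.58.1), by the quasi-likelihood test with TMM, 1 fit of 18 libraries and 6 conditions, and Benjamini-Hochberg adjustment over 15312 genes, without covariates. The common dispersion was 0.0223, and small differences of genes with few counts are not detectable. Folds of genes with no unheated counts use a floor of 3 counts over the group. The test was checked on simulated data. Alternatives were DESeq2 1.42.0, scaling by library size only or upper quartile, no filter or edgeR's filter on low counts, a minimum log2 change of 1, fits of the compared libraries only, the replicate block, leaving out each library, dropping genes with a maximum count from 0.3 of the gene length upwards, and a correction for positions counted once (filled share limited to 0.95).

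Symbols of the RefSeq tomato annotation were placed on 1496 identifiers by the order of neighbouring genes, not by sequence, and gene lists were drawn from these symbols in place of the gene descriptions first planned. Members and lists were chosen with earlier results of these data known. Named genes are those the paper names, the 10 largest rises and falls with a symbol and at least 20 CPM, the largest changes and most abundant uncalled members of each list, and the largest interactions; further list members named in the text were chosen after their values were seen. A gene that this rule names is not reported here.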

Additional observations from a re-analysis of the deposited data

Results flagged for a closer look

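Heat responses of 23 named genes differed between CS3 and WT by the interaction in edgeR (differences of log2 fold changes, CS3 minus WT, all with adjusted p under 0.05). Larger values in CS3 were found for tXET-B1 (3.06), IAA2 (2.31), ERF-B5 (2.15), ERF-B13 (2.07), FZY6 (1.95), EXLA1 (1.50), NAM1 (1.37), TCP6 (1.36), WRKY31 (1.13), ACO3 (1.12), APX1 (1.03), GLK2 (0.99), krp1 (0.98), CrtR-b1 (0.92) and GH3-5 (0.92). Smaller values in CS3 were found for NRC4B (-1.19), FLACCA (-1.66), TPS1 (-1.78), TMT2 (-1.84), CYP92B7 (-1.85), DRM6 (-1.90), formin-I2I (-2.12) and det2 (-2.39).

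APX1 had 289, 288 and 264 CPM at 1 h and 75.5, 92.7 and 85.8 CPM at 0 h in CS3, and 161, 168 and 135 CPM at 1 h and 95.1, 89.7 and 102 CPM at 0 h in WT. FLACCA, whose product activates an enzyme of abscisic acid synthesis, had 19.1, 39.99 and 31.03 CPM at 1 h in CS3, against 143, 84.8 and 129 CPM in WT. TPS1 had 30.7, 26.7 and 33.3 CPM at 1 h in CS3, against 58.5, 96.01 and 74.2 CPM in WT. It was listed with the terpene synthases by its symbol alone, which does not settle its enzyme. GLK2, a factor of chloroplast development, had a log2 fold change of 1.03 in CS3 (called) and 0.04 in WT (not called).

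Against CS2, DDTFR10A differed (1.93, adjusted p = 0.0448). When each of the 12 libraries of the 2 lines compared was left out in turn, the calls of ERF-B13, GLK2 and FLACCA passed 4 times, WRKY31 5 times, CYP92B7 9 times, krp1 10 times, DDTFR10A 3 times and ACO3 2 times, and the other 16 passed every time.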

How the results depend on the processing

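No call of a count or of a named gene in the CS3 heat response turned its direction under any alternative run. With a minimum log2 change of 1, 1325 genes passed in CS3 (753 higher, 572 lower), 23 against WT (12 larger, 11 smaller) and 0 against CS2, and HSFA1a no longer passed (log2 fold change 0.59, adjusted p = 1). Leaving out single CS3 libraries gave 6901 to 8331 calls in CS3, with 8331 without 0 h replicate 2. Against WT, leaving out single libraries gave 967 to 1937 calls (433 to 913 larger, 520 to 1024 smaller), with 967 without WT 0 h replicate 3, 988 without CS3 1 h replicate 3 and 993 without WT 1 h replicate 3. Against CS2 the count was 57 with DESeq2 (42 larger, 15 smaller), 36 without a filter (32 and 4), 7 with only the libraries compared (5 larger) and 7 to 38 with single libraries left out (5 to 35 larger, 2 to 4 smaller): 10 without CS2 0 h replicate 2, 8 without CS2 1 h replicate 2, 7 without CS2 1 h replicate 3 and 38 without CS2 1 h replicate 1. The cause of these changes was not tested.

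The deviations of same-numbered CS3 libraries from their group means had correlations of -0.171, 0.167 and -0.0255. So few values cannot tell whether replicate numbers pair samples. With the replicate block, 6225 genes were called in CS3, 1182 against WT and 4 against CS2 (3 larger, 1 smaller). Of 243 called genes among the named genes and list members, 155 lost their call with a minimum log2 change of 1, 30 with the replicate block, 16 to 31 with single CS3 libraries left out (31 without 1 h replicate 1, 17 without 0 h replicate 2), 23 with only the libraries compared, 21 with library size only, 15 with the correction for filled positions, 14 with upper quartile, 11 without a filter, 8 with edgeR's filter, 4 with DESeq2 and 3 without genes that reached 0.3 of their length.

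The depth of 1792234 to 3529639 counts per CS3 library limits genes with few counts: folds against 0 to 3 unheated counts are bounds or carry wide intervals. Duplicates were removed, and the correction for filled positions moved the log2 fold changes either way: for Hsp20.0 to 5.39, against 4.31 as counted, and for CAB4 to 0.55, against 0.69 as counted. In all, 1069 tested genes (6.98%) had a highest count of at least 0.3 of their length.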

Other observations

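Genes of the organelle genomes were mostly higher at 1 h in CS3. All 5 tested mitochondrial genes were higher, with log2 fold changes of 1.36 to 3.59 (median 2.33), and their summed level was 522 to 694 CPM at 1 h, against 136 to 331 CPM at 0 h. Of 38 tested chloroplast genes 18 were higher (47.4%) and 1 lower, with a median of 0.93, although the summed levels overlapped between 1 h (3004 to 4287 CPM) and 0 h (1287 to 3136 CPM). Over the nuclear chromosomes the share of genes called higher ran between 22.2% (chromosome 11) and 29.9% (chromosome 1).

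Genes called lower had longer spans than those called higher, with medians of 4687 and 3512 bases, against 4460 bases for genes not called. Of 1183 genes with spans up to 1000 bases, 36.7% were higher and 22.3% lower, and of 2723 genes over 8000 bases, 14.8% were higher and 34.4% lower. The median log2 fold changes of these classes were 0.21 and -0.21, and with the correction for filled positions 0.08 and -0.24. In WT they were 0.17 and -0.13. The part of gene length in the counts of single genes was not tested.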
